A study of Mus musculus with 12 samples.

Results

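Fibronectin and 6 matricellular proteins were followed across 12 messenger RNA libraries of mouse 4T1 cells, an epithelial line derived from a triple-negative mammary tumour. The genes were Fn1, Tnc, Postn, Sparc, Thbs1, Spp1 and Smoc1, chosen by gene symbol with earlier results of these data known. Each symbol had 1 gene ID in the table, so 7 of its 78317 genes were members, and all 7 passed the filter on low counts. The groups were PBRM1 KO cells after 4 days with 5 ng/ml TGFβ1, control cells after the same treatment, PBRM1 KO cells with no treatment and control cells with no treatment, with 3 biological replicates each. PBRM1 carries several bromodomains within PBAF, a SWI/SNF chromatin remodeller, and TGFβ1 is a cytokine that signals through SMAD2 and SMAD3. Libraries counted the 3′ ends of transcripts after removal of duplicate molecules, so splice forms of a gene, such as those of Fn1, Tnc and Postn, were not separated. Titles name the untreated samples 0 h, whereas the treatment protocol describes 4 days of culture with or without the cytokine. If the titles hold, TGFβ1 and the days in culture cannot be told apart. Whether the KO cells were a clone or a pool, and where Pbrm1 was edited, were not stated in the labels.

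Fibronectin is a large glycoprotein that cells bind through integrins and assemble into fibrils, on which other matrix proteins are laid down. Matricellular proteins are secreted into the matrix but mostly modify how cells attach to it and receive signals rather than bear load. TGFβ is a known inducer of several of them, and in carcinomas they are made by tumour cells as well as by stromal fibroblasts and macrophages.

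The bases before the transcription start are shown for the 4 members that matched the RefSeq promoter table (GRCm38.p6), because the members moved together with TGFβ1. Each run is the 250 bases before the start, 5′ to 3′ on the gene's own strand, and where the table had several starts the outermost one within 50 bases of a GENCODE vM21 principal start was taken. Capitals mark matches on either strand to 5 motifs. CAGAC is a SMAD box, which reads GTCTG on the other strand. TGANTCA is an AP-1 site and GGAATG a TEAD site. GGGCGG is a GC box. TATAAA is a TATA box. No 2 matches overlapped.
Tnc, chr4:64047016-64047265, minus strand: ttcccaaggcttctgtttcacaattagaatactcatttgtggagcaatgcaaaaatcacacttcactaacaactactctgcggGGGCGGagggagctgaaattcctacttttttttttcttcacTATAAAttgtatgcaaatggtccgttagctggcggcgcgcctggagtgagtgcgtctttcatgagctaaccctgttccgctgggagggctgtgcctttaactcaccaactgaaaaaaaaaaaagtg
Postn, chr3:54360857-54361106, plus strand: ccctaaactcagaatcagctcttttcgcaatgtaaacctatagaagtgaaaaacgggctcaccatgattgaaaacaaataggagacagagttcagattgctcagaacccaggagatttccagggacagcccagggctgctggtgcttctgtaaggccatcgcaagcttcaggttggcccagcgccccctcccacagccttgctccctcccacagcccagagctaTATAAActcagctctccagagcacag
Sparc, chr11:55420081-55420330, minus strand: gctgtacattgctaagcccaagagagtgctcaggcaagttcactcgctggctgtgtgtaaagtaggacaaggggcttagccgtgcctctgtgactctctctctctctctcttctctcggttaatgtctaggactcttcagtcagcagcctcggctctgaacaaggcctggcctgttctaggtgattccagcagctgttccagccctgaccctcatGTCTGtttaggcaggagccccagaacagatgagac
Spp1, chr5:104434861-104435110, plus strand: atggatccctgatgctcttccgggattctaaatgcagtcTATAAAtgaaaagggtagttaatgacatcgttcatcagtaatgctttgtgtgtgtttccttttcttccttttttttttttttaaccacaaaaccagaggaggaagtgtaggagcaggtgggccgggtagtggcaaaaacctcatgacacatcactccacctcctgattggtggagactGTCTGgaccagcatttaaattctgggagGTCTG
Spp1 held 2 SMAD boxes, beginning 33 and 5 bases before the start, and a TATAAA 211 bases before it. Sparc held 1 SMAD box, beginning 35 bases before the start. Postn had TATAAA 26 bases before its start, and Tnc had TATAAA at 126 and a GC box at 167 bases. Neither Tnc nor Postn had CAGAC in these windows. The table holds a second start for Tnc, Postn and Spp1, and the window before that start held 1 SMAD box in each of them, with a TATA box in Tnc alone. At every start tabled, the letters searched for AP-1 and TEAD were absent. Of 32851 promoter windows of this length, 42.2% held the SMAD box, 6.7% the AP-1 site, 12.6% the TEAD site, 32.7% the GC box and 12.4% the TATA box. Coordinates are of GRCm38, not of the mm39 build named in the submitters' processing notes. Fn1, Thbs1 and Smoc1 had no entry.

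Library totals ran from 9265693 to 11250850 counts. Pbrm1 lay between 222 and 274 CPM in PBRM1 KO libraries with TGFβ1, 276 and 292 CPM in control libraries with TGFβ1, 207 and 245 CPM in untreated PBRM1 KO libraries and 258 and 328 CPM in untreated control libraries (KO over control log2 −0.25 ± 0.10 with TGFβ1, edgeR adjusted p = 0.513, and −0.33 ± 0.10 without, adjusted p = 0.349). A 3′ end count need not read an edited exon, so this checks neither the edit nor the protein. The 7 epithelial markers, among them Epcam, Krt8 and Krt18, were counted in every library and summed to 2511 to 3593 CPM; with TGFβ1 1 rose and 3 fell in PBRM1 KO cells and 0 rose and 4 fell in control cells. The 6 leukocyte and macrophage markers summed to 5.34 to 10.1 CPM. Of these, Cd68 (up to 7.83 CPM) and Lyz2 (up to 2.58 CPM) were counted in every library, and Ptprc, Adgre1, Itgam and Tyrobp each had at most 6 counts over the 12 libraries together. Of the hormone receptor genes and Erbb2, Esr1 was counted in every library, at 4.42 to 11.5 CPM, and Erbb2 at 34.6 to 41.6 CPM, while Pgr had 1.5 counts in all. These are RNA counts, and receptor protein was not measured, so they do not check the triple-negative label. The 5 endothelial markers summed to at most 1.36 CPM. The 8 fibroblast markers summed to 29.1 to 58.4 CPM in PBRM1 KO libraries with TGFβ1 and 33.9 to 107 CPM in control libraries with TGFβ1, against 29.1 to 39.5 and 36.0 to 49.7 CPM in the untreated libraries of those genotypes. Col1a1 was the most abundant of these 8, at up to 53.6 CPM, and Lum and Fap stayed under 1 CPM. None of the 5 tested fibroblast markers passed with TGFβ1 in either genotype, and their part in the results below was not tested. In bulk libraries fewer cells of a type and less RNA per cell cannot be told apart.

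Among the libraries with TGFβ1, replicate 3 of both genotypes stood apart from replicates 1 and 2. The median response of the genes called higher was log2 0.48 in PBRM1 KO replicate 3, against 1.02 and 0.97 in replicates 1 and 2, and 0.53 in control replicate 3, against 0.92 and 0.98. The members' results are also given without both of these libraries.

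TGFβ1 raised all 7 genes in both genotypes. Log2 fold changes ran from 0.60 (Thbs1) to 4.63 (Smoc1) in PBRM1 KO cells, with a median of 2.05, and from 0.84 (Thbs1) to 5.13 (Tnc) in control cells, with a median of 2.40. Over all 14012 tested genes the median was 0.00 in both. With edgeR adjusted p below 0.05 as the call, 7.65% of tested genes were higher and 3.72% lower with TGFβ1 in PBRM1 KO cells, and 5.89% were higher and 2.91% lower in control cells. Members and the lists below were chosen with earlier results of these data known, so these shares stand beside them as description, not as a test. In PBRM1 KO cells a fit with the replicate number as a block called 1682 genes higher and 1098 lower, against 1072 and 521 without the block, and all 7 members remained called. For every member each library with TGFβ1 lay above each untreated library of its genotype, as it did for 16.1% of tested genes in PBRM1 KO cells and 14% in control cells. Without both TGFβ1 replicate 3 libraries all 7 were called in both genotypes, with log2 changes of 1.80 and 1.75 for Fn1, 4.76 and 5.50 for Tnc, 2.71 and 2.77 for Postn, 1.53 and 1.21 for Sparc, 0.72 and 1.00 for Thbs1, 2.06 and 2.57 for Spp1 and 5.09 and 4.33 for Smoc1 in PBRM1 KO and control cells. In those fits 1988 genes in control cells and 2277 in PBRM1 KO cells were called higher. The 7 genes together took 0.318% to 0.438% of counts in PBRM1 KO and 0.336% to 0.515% in control libraries with TGFβ1, against 0.137% to 0.147% and 0.128% to 0.156% in the untreated libraries.

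**Figure D1:**
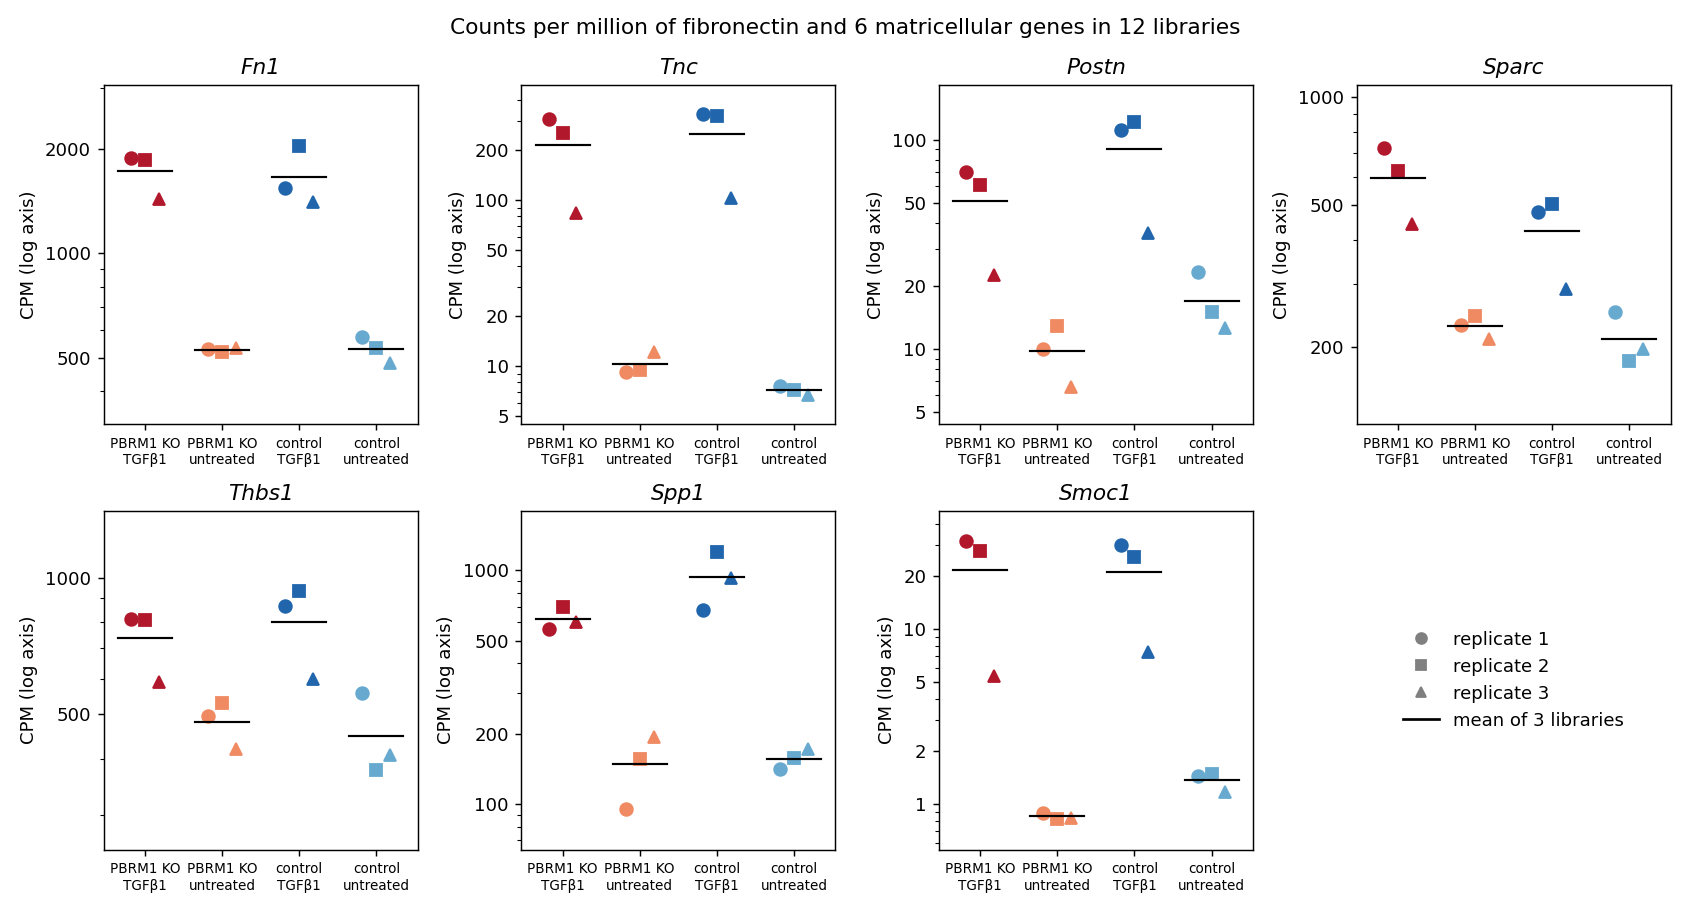
CPM on a log axis (each count as a share of its library's total, scaled to 1000000) for each gene in the 12 libraries; colours are groups, symbols are replicates and black lines are means of 3 libraries. In every panel the TGFβ1 libraries lie above the untreated libraries of the same genotype, and replicate 3 is the lowest TGFβ1 library of its group for each gene except Spp1.

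Fn1 encodes fibronectin itself. It stood at 1877, 1854 and 1432 CPM in PBRM1 KO libraries with TGFβ1 (replicates 1, 2 and 3), against 528, 520.0 and 531 CPM in untreated PBRM1 KO libraries. Control libraries had 1546, 2038 and 1406 CPM with TGFβ1, against 574, 534 and 482 CPM untreated. The untreated KO libraries were within 1.02-fold of each other, the tightest of any member and group. The rise was log2 1.70 ± 0.13 in PBRM1 KO cells (edgeR adjusted p = 1.42e-05) and 1.65 ± 0.13 in control cells (adjusted p = 2.49e-05). Fn1 counts were fractional in 10 of 12 libraries, with a fractional part of up to 0.83 on counts of 4531 to 22537. So at least some reads had been counted in part. How many, and whether they were shared with other genes, is not known from the deposited values. With unrounded counts the log2 changes were 1.70 and 1.65.

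Tnc encodes tenascin C, an oligomeric protein that is scarce in most adult tissue and made at sites of repair and in tumour stroma. It had 309.5, 255 and 84.1 CPM in PBRM1 KO libraries with TGFβ1, against 9.15, 9.46 and 12.2 CPM untreated. In control cells the values were 330.2, 324 and 103 CPM with TGFβ1, against 7.59, 7.19 and 6.70 CPM untreated. The fold change was 20.8 in PBRM1 KO cells (log2 4.38 ± 0.50, adjusted p = 0.000209) and 34.9 in control cells (log2 5.13 ± 0.52, adjusted p = 0.00014). Tnc ranked 25 and 10 by fold change among the 14012 tested genes in PBRM1 KO and control cells. Replicate 3 with TGFβ1 was the lowest treated library in both genotypes and still lay far above all untreated ones.

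Smoc1 encodes a secreted calcium-binding protein of basement membranes, related to SPARC and known as a modulator of BMP signalling. It had 31.6, 28.0 and 5.36 CPM (335, 281 and 60 counts) in PBRM1 KO libraries with TGFβ1, against 0.889, 0.819 and 0.832 CPM (10, 9 and 9 counts) untreated. Control libraries had 30.2, 25.8 and 7.38 CPM (280, 285 and 78 counts) with TGFβ1, against 1.45, 1.47 and 1.17 CPM (16, 16 and 11 counts) untreated. So the gene was near its detection limit without TGFβ1, and its untreated level rests on few molecules. The rise was log2 4.63 ± 0.72 in PBRM1 KO cells (adjusted p = 0.0017) and 3.92 ± 0.68 in control cells (adjusted p = 0.00375). Among the TGFβ1 libraries the highest was 5.90 times the lowest in PBRM1 KO cells and 4.09 times in control cells, the widest spread of the 7 genes in each.

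Postn encodes periostin, which binds integrins and collagen and is usually made by fibroblasts and osteoblasts. Its values were 69.8, 60.6 and 22.6 CPM in PBRM1 KO libraries with TGFβ1, against 10.04, 12.8 and 6.56 CPM untreated. With TGFβ1 control libraries held 112, 122 and 36.0 CPM, against 23.4, 15.02 and 12.6 CPM untreated. Replicate 3 with TGFβ1 was the treated library nearest to untreated cells in both genotypes, and it did not overlap them. The rise was log2 2.36 ± 0.48 (adjusted p = 0.00764) in PBRM1 KO cells and 2.40 ± 0.46 (adjusted p = 0.00689) in control cells.

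Spp1 encodes osteopontin, a phosphorylated ligand of integrins and CD44 that is abundant in bone and in many carcinomas. It had 561, 701 and 599.9 CPM in PBRM1 KO libraries with TGFβ1, against 95.5, 157 and 194 CPM untreated. The control libraries had 676, 1202 and 925 CPM with TGFβ1, against 140.5, 157 and 172 CPM untreated. Here replicate 3 lay between replicates 1 and 2 in both genotypes, unlike the other 6 genes. The rise was log2 2.05 ± 0.24 in PBRM1 KO cells (adjusted p = 0.00023) and 2.58 ± 0.24 in control cells (adjusted p = 6.53e-05).

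Sparc encodes osteonectin, a collagen-binding protein that weakens cell attachment. It stood at 723, 624 and 443 CPM in PBRM1 KO libraries with TGFβ1, against 231, 244 and 211 CPM untreated. Control cells had 479.6, 502 and 291 CPM with TGFβ1, against 251, 183 and 198 CPM untreated. The change was log2 1.37 ± 0.20 in PBRM1 KO cells (adjusted p = 0.000987) and 1.01 ± 0.20 in control cells (adjusted p = 0.00793). Control replicate 3 with TGFβ1, at 291 CPM, was the treated library nearest to the untreated range, whose top was 251 CPM.

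Thbs1 encodes thrombospondin 1, an inhibitor of vessel growth that can release TGFβ from its latent form. It had 811, 806 and 591 CPM in PBRM1 KO libraries with TGFβ1, against 496, 529 and 421 CPM untreated. The control values were 866, 936 and 597 CPM with TGFβ1, against 557, 378 and 407 CPM untreated. The smallest rises of the 7 were here, at log2 0.60 ± 0.17 in PBRM1 KO cells (adjusted p = 0.0438) and 0.84 ± 0.18 in control cells (adjusted p = 0.0117). Its call was the least steady. It was lost in PBRM1 KO cells when scaled by library totals alone (adjusted p = 0.0501) and when TGFβ1 replicate 1 or 2 or any untreated replicate of PBRM1 KO cells was left out (adjusted p = 0.075 to 0.18). In control cells it was lost without TGFβ1 replicate 1 or 2 or untreated replicate 2 or 3 (adjusted p = 0.0519 to 0.0688). DESeq2 kept the call of Thbs1 in PBRM1 KO (adjusted p = 0.0125) and control cells (adjusted p = 0.00015). EdgeR with the replicate block kept it too (adjusted p = 0.00275 and 0.000328). The other 6 genes stayed called in each of the 12 fits that left out 1 library of the comparison.

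**Figure D2:**
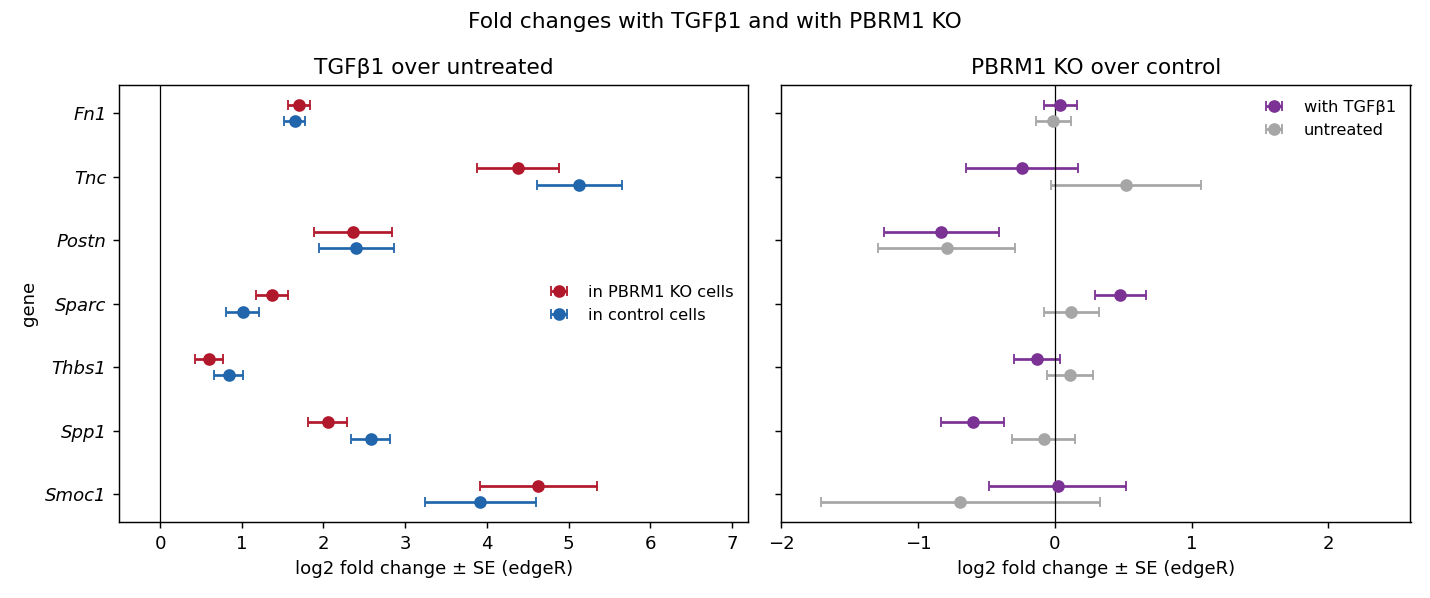
Log2 fold change ± SE from edgeR for TGFβ1 over untreated (left, PBRM1 KO cells in red, control cells in blue) and PBRM1 KO over control (right, with TGFβ1 in purple, untreated in grey). All 14 changes with TGFβ1 lie above 0, from 0.60 to 5.13, while those with genotype lie between −0.83 and 0.52.

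The 7 genes differed in how much of the response replicate 3 carried. Measured as log2 CPM above the untreated mean of the genotype, replicate 3 as a percentage of the mean of replicates 1 and 2 was 98.5% in PBRM1 KO and 102% in control cells for Spp1, and 80.6% and 82.0% for Fn1. For Tnc the percentages were 64.0% and 69.9%, for Smoc1 50.3% and 55.2% and for Sparc 62.9% and 40.3%. Postn had 45.7% and 40.5%, and Thbs1 42.4% and 44.3%. The median over all genes called higher with TGFβ1 was 52.7% in PBRM1 KO and 58.5% in control cells. These are descriptions of 1 library a genotype, with no test.

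**Figure D3:**
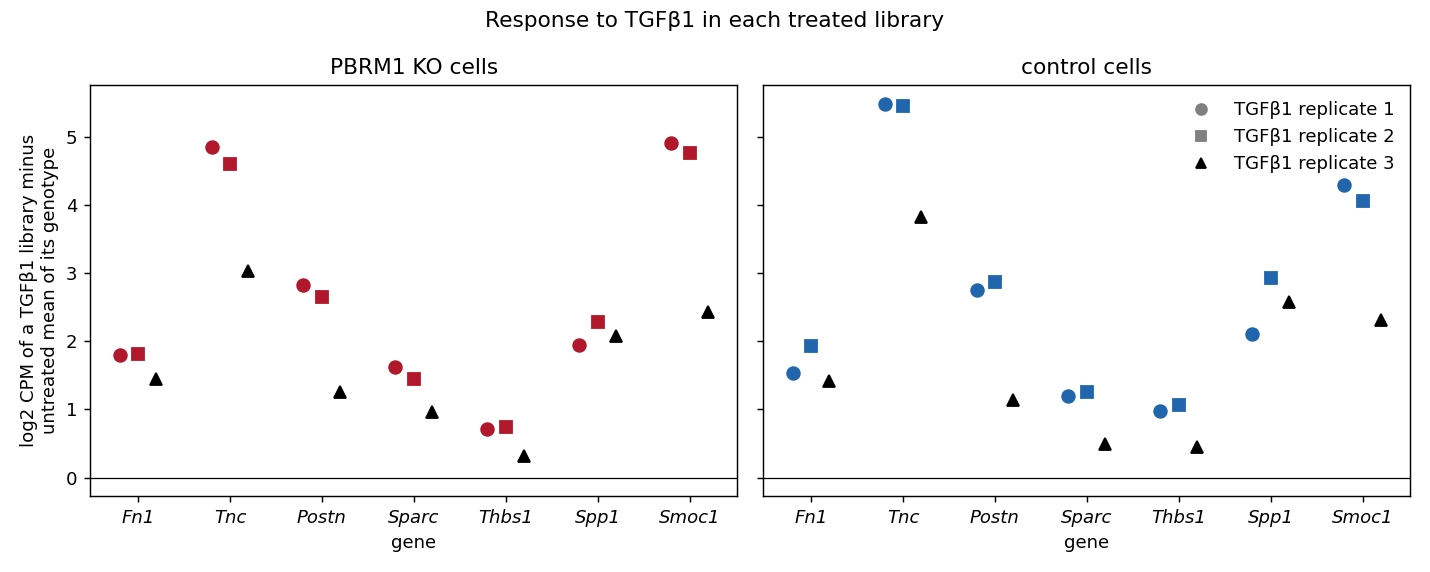
Log2 CPM of each TGFβ1 library minus the untreated mean of its genotype, for PBRM1 KO cells (left) and control cells (right); black triangles are replicate 3. Replicate 3 lies between the other replicates for Spp1, at 2.08 in PBRM1 KO and 2.58 in control cells, and below them for the other 6 genes.

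PBRM1 KO changed none of the 7 genes by the test, with or without TGFβ1. With TGFβ1, 0.0714% of tested genes were higher and 0.2% lower in KO over control cells (10 and 28 genes by edgeR; 49 and 109 with the replicate number as a block), and without TGFβ1 0.0428% were higher and 0.236% lower. Of the 7 members 0 were called by edgeR or DESeq2 in either. An unadjusted edgeR p below 0.05 was seen for 2 members with TGFβ1 and 0 without, and for 1194 and 1065 of all 14012 tested genes. Those 2 were Spp1, at log2 −0.60 ± 0.23 (adjusted p = 0.436), and Sparc, at 0.48 ± 0.19 (adjusted p = 0.491). For Spp1 the KO library with the highest level, 701 CPM, reached past the lowest control library at 676 CPM. For Sparc the KO libraries overlapped the control ones through replicate 3, at 443 CPM. Postn was at −0.83 ± 0.42 with TGFβ1 (adjusted p = 0.631) and −0.79 ± 0.50 without (adjusted p = 0.863), and its groups overlapped in both. Between same-numbered libraries with TGFβ1, Postn, Spp1, Tnc and Thbs1 were lower and Sparc higher in PBRM1 KO than in control cells in 3 of 3 pairs. For Thbs1 replicate 3 was close, at 591 CPM in PBRM1 KO and 597 CPM in control cells. Fn1 and Smoc1 were mixed. The share of all genes with 1 direction in 3 of 3 pairs is not given here, so the pattern is a description. With the block, the adjusted p with TGFβ1 was 0.0527 for Postn, 0.075 for Spp1 and 0.111 for Sparc. Without both TGFβ1 replicate 3 libraries it was 0.0868 for Postn, 0.516 for Spp1 and 0.184 for Sparc, and none of the 7 passed. With no filter on low counts Postn (adjusted p = 3.45e-08) and Spp1 (adjusted p = 1.62e-05) were called lower and Sparc (adjusted p = 0.00116) higher in KO cells with TGFβ1. Without it Tnc was called higher (adjusted p = 0.0399) and Postn lower (adjusted p = 4.44e-05). That fit called 78 genes higher and 181 lower with TGFβ1, and 87 and 191 without. For Postn with TGFβ1 its SE was 0.12 at log2 −0.82, against 0.42 at −0.83 with the filter. So these p-values rest on a smaller estimate of the spread, not on a larger change.

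In untreated cells the libraries of the genotypes did not overlap for Tnc (higher in KO) and Smoc1 (lower in KO), and neither passed the test. Of all tested genes 6.95% were higher and 8.71% lower in PBRM1 KO without overlap, and with TGFβ1 6.28% and 5.61% were, with 0 of the 7 among them. Tnc had 9.15, 9.46 and 12.2 CPM in PBRM1 KO libraries, all above the control libraries at 7.59, 7.19 and 6.70 CPM (log2 0.52 ± 0.55, adjusted p = 0.942). Smoc1 had 10, 9 and 9 counts in PBRM1 KO libraries, all below the 16, 16 and 11 counts in control libraries (log2 −0.69 ± 1.02, adjusted p = 0.969). Fn1 differed between genotypes by log2 0.04 ± 0.12 with TGFβ1 (adjusted p = 0.976) and −0.01 ± 0.13 without (adjusted p = 0.997). Thbs1 differed by −0.13 ± 0.17 (adjusted p = 0.912) and 0.11 ± 0.17 (adjusted p = 0.975). These SEs took the spread from all 12 libraries, treated ones included. Without both TGFβ1 replicate 3 libraries, untreated Tnc differed by 0.52 ± 0.14 (edgeR adjusted p = 0.0995). Untreated Postn then differed by −0.80 ± 0.22 (adjusted p = 0.103) and Smoc1 by −0.69 ± 0.27 (adjusted p = 0.415). None of the 7 was called in that fit.

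The response to TGFβ1 itself was compared between genotypes through the interaction term. It ran from log2 −0.75 ± 0.69 for Tnc to 0.71 ± 1.13 for Smoc1, and each of the 7 had adjusted p = 1.00. Spp1 was at −0.52 ± 0.32, Sparc at 0.36 ± 0.28, Thbs1 at −0.24 ± 0.25, Fn1 at 0.05 ± 0.18 and Postn at −0.04 ± 0.66. By edgeR 0% of genes were called in either direction, 247 of 14012 had an unadjusted p below 0.05 and none of the 7 was among them. DESeq2 called 0 of the 7 too. The approximate 95% intervals of the interaction were widest for Smoc1 (−1.51 to 2.93), Tnc (−2.10 to 0.59) and Postn (−1.34 to 1.26). Without both TGFβ1 replicate 3 libraries the interaction was −0.74 for Tnc (95% interval −1.09 to −0.39, edgeR adjusted p = 0.832) and 0.77 for Smoc1 (0.18 to 1.35, adjusted p = 1.00). In that fit these 2 members had an unadjusted p below 0.05, and none of the 7 passed. The share of all genes with such a p in that fit is not given here.

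By mean level with TGFβ1, the order of the groups was not the same for each gene. Sparc averaged 597 ± 142 CPM in PBRM1 KO and 424 ± 116 CPM in control cells with TGFβ1, then 229 ± 16.5 in untreated PBRM1 KO and 211 ± 35.9 in untreated control cells (mean ± SD, n = 3). Spp1 had the control cells on top among those with TGFβ1, at 620.3 ± 72.2 CPM in PBRM1 KO and 934 ± 263 CPM in control cells. Its untreated means were 149 ± 49.9 in PBRM1 KO and 156 ± 15.5 CPM in control cells. In all 7 genes both TGFβ1 groups lay above both untreated groups by mean. Between groups that share a treatment the main edgeR fit called none of the 7, with a spread estimated over all 12 libraries.

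Other matricellular and fibulin genes rose in part. Of 30 in the list 13 were tested, and 4 rose and 0 fell with TGFβ1 in PBRM1 KO cells, with a list median of log2 0.44, and 5 rose and 0 fell in control cells, with a median of 0.46; the median of all tested genes was 0.00. Ccn2, connective tissue growth factor, rose by log2 2.64 ± 0.27 in PBRM1 KO cells (adjusted p = 9.91e-05) and 2.49 ± 0.27 in control cells (adjusted p = 0.000226). Ccn4, another CCN protein, rose by 3.14 ± 0.55 (adjusted p = 0.00303) and 2.73 ± 0.53 (adjusted p = 0.00793). Fbln2, fibulin 2, which binds fibronectin, rose by 1.11 ± 0.12 (adjusted p = 0.000109) and 0.93 ± 0.11 (adjusted p = 0.000385). Dmp1, like Spp1 a member of the SIBLING family of acidic phosphoproteins, averaged 14.7 ± 9.21 CPM in PBRM1 KO libraries with TGFβ1 and 1.06 ± 0.459 CPM untreated (log2 3.76 ± 0.73, adjusted p = 0.00584). In control cells Dmp1 rose by 3.39 ± 0.75 (adjusted p = 0.0155). Ecm1 passed in control cells (log2 0.90 ± 0.18, adjusted p = 0.0102) and stood at 0.44 ± 0.19 in PBRM1 KO cells (adjusted p = 0.143), with an interaction of −0.46 ± 0.26 (adjusted p = 1.00). Of the closest relatives of the members, Sparcl1 had 15, 14 and 3 counts with TGFβ1 against 2, 3 and 3 untreated in PBRM1 KO libraries (adjusted p = 0.236), and 17, 35 and 0 counts with TGFβ1 against 2, 3 and 4 untreated in control libraries (adjusted p = 0.119). Thbs3 was at −0.99 ± 0.60 in PBRM1 KO cells (adjusted p = 0.313) and 0.04 ± 0.44 in control cells (adjusted p = 0.969), and Thbs2, Thbs4, Tnn, Tnr, Tnxb and Smoc2 were too low to test. Without both TGFβ1 replicate 3 libraries 8 rose in PBRM1 KO cells and 6 in control cells, of 14 tested.

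The receptors of these proteins include integrins, syndecans and CD44. Of 17 in the list 12 were tested, and 7 rose and 0 fell with TGFβ1 in PBRM1 KO cells (list median log2 0.41) and likewise 7 and 0 in control cells (0.43). Itgb3, the β3 integrin subunit that binds fibronectin, osteopontin and thrombospondin with αv, averaged 39.6 ± 24.4 CPM in PBRM1 KO libraries with TGFβ1 and 1.78 ± 0.127 CPM untreated (log2 4.44 ± 0.63, adjusted p = 0.000913). In control cells it averaged 35.6 ± 21.1 CPM with TGFβ1 and 2.16 ± 0.265 CPM untreated (log2 4.02 ± 0.62, adjusted p = 0.00183). Itgb5 rose by 1.34 ± 0.25 (adjusted p = 0.00529) and 1.40 ± 0.25 (adjusted p = 0.00495) in PBRM1 KO and control cells. Itga5, whose pairing with Itgb1 is the classical fibronectin receptor, rose by 0.87 ± 0.23 (adjusted p = 0.0302) and 0.81 ± 0.23 (adjusted p = 0.0461), and Itgb1 by 0.31 ± 0.08 (adjusted p = 0.0298) and 0.35 ± 0.08 (adjusted p = 0.0218). Itgav rose by 0.50 ± 0.15 (adjusted p = 0.0435) and 0.52 ± 0.15 (adjusted p = 0.0433). Stab1, a scavenger receptor that takes up SPARC, rose by 1.79 ± 0.37 (adjusted p = 0.00823) and 1.30 ± 0.36 (adjusted p = 0.0395), and Sdc1 by 0.74 ± 0.22 (adjusted p = 0.0452) and 1.03 ± 0.22 (adjusted p = 0.0123). Cd44, a receptor of osteopontin, was at 0.16 ± 0.11 (adjusted p = 0.355) and 0.24 ± 0.11 (adjusted p = 0.188), and Cd47, a receptor of thrombospondin 1, at 0.09 ± 0.07 (adjusted p = 0.467) and 0.13 ± 0.07 (adjusted p = 0.278). With the replicate block 2 receptors fell in PBRM1 KO and 1 in control cells beside the 7 that rose in each. With DESeq2 1 fell in PBRM1 KO cells. Without both TGFβ1 replicate 3 libraries 8 rose and 1 fell in each genotype.

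**Figure D4:**
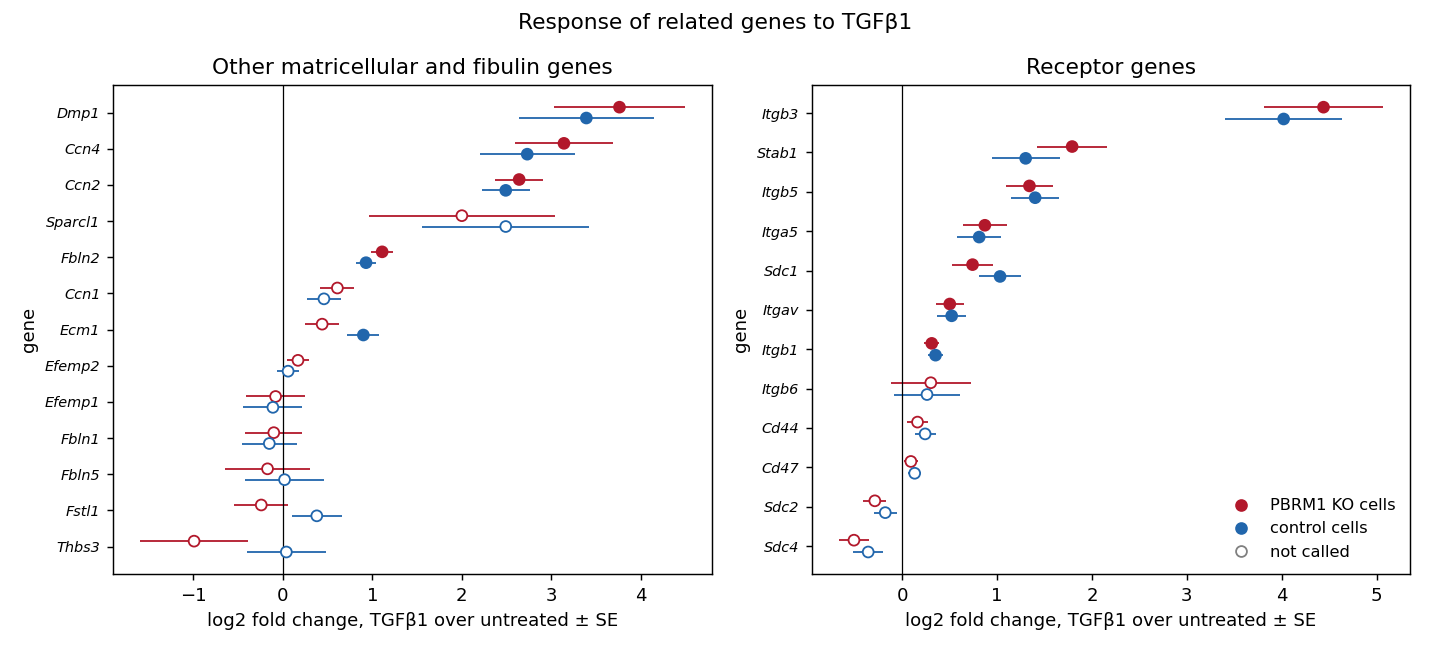
Log2 fold change with TGFβ1 ± SE for the tested genes of the matricellular list (left, 13 genes) and the receptor list (right, 12 genes), PBRM1 KO cells in red and control cells in blue; filled points passed adjusted p below 0.05. Itgb3, Dmp1, Ccn4 and Ccn2 lie farthest to the right among filled points, and no filled point lies below 0.

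Between genotypes 0 genes of either list were called, by edgeR or DESeq2. Unadjusted edgeR p was below 0.05 for 3 of 13 matricellular genes and 1 of 12 receptors with TGFβ1, and for 1 and 2 without it. Over all 14012 tested genes it was below 0.05 for 1194 with TGFβ1 and 1065 without. With TGFβ1 Thbs3 was at log2 −1.84 ± 0.55 (adjusted p = 0.269) and Ecm1 at −0.50 ± 0.18 (adjusted p = 0.406), and without it Ccn1 was at −0.44 ± 0.19 (adjusted p = 0.625) and Sdc4 at 0.35 ± 0.16 (adjusted p = 0.651). Itgb6, a partner of αv that activates latent TGFβ, averaged 3.61 ± 1.89 CPM in PBRM1 KO and 8.23 ± 3.37 CPM in control cells with TGFβ1 (log2 −1.21 ± 0.38, adjusted p = 0.311), and 2.86 ± 0.722 CPM in PBRM1 KO and 6.82 ± 1.38 CPM in control cells without it (log2 −1.25 ± 0.39, adjusted p = 0.349). With the replicate block Itgb6 (adjusted p = 0.0267) and Thbs3 (log2 −1.89, adjusted p = 0.0477) passed with TGFβ1. Itgb6 also passed without both TGFβ1 replicate 3 libraries (adjusted p = 0.0268 with TGFβ1 and 0.00365 without), without a filter on low counts (adjusted p = 1.68e-05 and 1.83e-05) and, in untreated cells, with the block (adjusted p = 0.0273) and with only the 6 libraries compared (adjusted p = 0.0156). With DESeq2 its adjusted p was 0.167 with TGFβ1 and 0.15 without. Thbs3 rested on 8, 3 and 1 counts in PBRM1 KO libraries against 16, 11 and 15 counts in control libraries with TGFβ1. With no filter on low counts 2 of 27 matricellular genes and 1 of 17 receptors were lower in KO cells, both with and without TGFβ1. As a check of the treatment, known early targets of TGFβ were read in PBRM1 KO and control cells. Pmepa1 rose by log2 1.37 ± 0.24 in PBRM1 KO cells (edgeR adjusted p = 0.00307) and 0.97 ± 0.24 in control cells (adjusted p = 0.0238), and Skil, a SMAD corepressor, by 1.05 ± 0.29 (adjusted p = 0.0341) and 0.99 ± 0.29 (adjusted p = 0.0489).

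The profile of each member over the 12 libraries, as log2 CPM above the untreated control mean, was set against those of tested genes outside the members. Only genes with symbols of letters and digits were taken, without Gm and Rik names. The root mean square difference in log2 units gave the likeness, with no test. Nearest to Smoc1 was Itgb3 (0.31), then Mmp12 (0.45) and Ramp1 (0.50). Nearest to Tnc were Mmp9 (0.48), Trbc1 (0.51) and Hsd11b2 (0.67), and to Postn Cd38 (0.28), Spata13 (0.32) and P2ry6 (0.35). For Spp1 they were Igfbp7 (0.37), Akap12 (0.46) and Has2 (0.48). Fn1 was nearest to Gcnt2 (0.19), Unc5b (0.19) and Erfe (0.23), Sparc to Shf (0.15), Sorcs2 (0.15) and Pmepa1 (0.16), and Thbs1 to Zfp185 (0.10), Agap1 (0.13) and Stat3 (0.13). Among the members themselves the closest pair was Fn1 and Sparc (0.38) and the farthest Tnc and Thbs1 (2.89). Genes with small changes lie close to many others on this scale, so the distances of different members are not comparable.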

How the data were processed

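Messenger RNA of 12 4T1 libraries was primed on poly(A), tagmented and sequenced single-end on 1 strand, and reads were collapsed by their molecular identifiers, per the labels' protocols. The submitters' processing notes name mm39, edgeR 3.38.4, STAR 2.7.11, featureCounts with Subread 2.1.1, fastp 0.24.0 and SAMtools 1.22.1, without settings. Expected counts is the unit taken for the deposited values, because 27.5% of cells above 0 were fractional (tolerance 0.001). The deposited CPM equalled count over library total within 4.85e-06, and CPM here is that value. The 92 ERCC rows held 0 counts and were left out.

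Counts were rounded to whole numbers, filtered with filterByExpr (14012 genes left) and scaled by TMM. The main test was edgeR 4.0.16 in R 4.3.3, quasi-likelihood F, 1 mean per group over all 12 libraries, Benjamini-Hochberg over all tested genes, called at adjusted p below 0.05. Each SE was obtained by dividing the log2 fold change by √F. All 95% intervals are approximate: they used these SEs with a normal quantile, so they are narrower than the F test implies. Log2 profiles used a prior count of 2. The fit was also run on simulated counts with the same dispersion for every gene and no link between same-numbered libraries. These data differ in both, so that run does not check the calls here. The labels call the replicates biological without saying that they were separate cultures, so p-values measure the spread between these samples.

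Members and lists were chosen with earlier results of these data known. Named list genes were up to 4 per direction that passed, by p, else the 2 with the smallest p; Itga5, Itgav, Cd44 and Sparcl1 were named after their values were seen. Same-numbered libraries deviated together, with correlations of 0.201, 0.139 and 0.202 for the TGFβ1 effect in KO cells. For the KO effect with TGFβ1 they were 0.396, 0.416 and 0.726. The main fit used no pairing, so its SEs and p-values are unpaired. Only the replicate block pairs same-numbered libraries. Alternatives were RLE scaling, library totals, no filter, DESeq2 1.42.0, the replicate block, only the 6 libraries of a comparison, unrounded counts, both TGFβ1 replicate 3 libraries left out and each library left out in turn. List counts under alternatives were added after the data were seen. One result of the treatment check is not reported here.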

Additional observations from a re-analysis of the deposited data

How the results depend on the processing

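All 7 genes kept their direction with TGFβ1 in both genotypes under every alternative run, and the 7 calls were lost for Thbs1 alone, as given above; leaving out 1 library gave 6 to 7 called members in PBRM1 KO and in control cells. With no filter on low counts 2 members were called for PBRM1 KO without TGFβ1 and 3 with it, against 0 and 0 with the filter; the cause was not tested. Among list genes, leaving out 1 library lost the TGFβ1 call of Itgb1 in 4 of 6 PBRM1 KO and 5 of 6 control fits, of Skil in 5 of 6 of each, and, in control cells, of Pmepa1 in 5 of 6, Sdc1 in 3 of 6 and Ecm1 in 1 of 6. Skil in control cells also lost its call with DESeq2 (adjusted p = 0.0512) and library totals (0.0577), and Itgb1 in PBRM1 KO cells without the filter (0.0586) and with only 6 libraries (0.0674). Near 0, Fn1 turned to 0.01 without the filter (PBRM1 KO without TGFβ1), and Smoc1 to −0.03 with the replicate block (PBRM1 KO with TGFβ1). Leaving out 1 library took PBRM1 KO with TGFβ1 from −0.06 to 0.21 for Fn1, −0.38 to 0.48 for Smoc1, −0.61 to 0.15 for Tnc and −0.41 to 0.04 for Ccn2, PBRM1 KO without TGFβ1 from −0.06 to 0.04 for Fn1 and −0.31 to 0.17 for Spp1, and the interaction from −0.05 to 0.22 for Fn1 and −0.41 to 0.31 for Postn.

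Counts of all called genes moved more. For TGFβ1 in PBRM1 KO cells the 1593 calls became 2413 with no filter, 2780 with the replicate block and 3984 without both TGFβ1 replicate 3 libraries, and 613 to 3059 when 1 library was left out. For TGFβ1 in control cells the 1234 became 2115, 2397 and 3414, and 408 to 2400. For PBRM1 KO with TGFβ1 the 38 became 259 with no filter, 89 with DESeq2, 158 with the block, 4 with only its 6 libraries, 76 without both replicate 3 libraries and 3 to 61 with 1 library left out. For PBRM1 KO without TGFβ1 the 39 became 278, 106, 144, 135 and 201 under those settings and 8 to 24. The interaction had 18 calls with no filter and 0 otherwise. For TGFβ1 in control cells and PBRM1 KO without TGFβ1 the correlations of same-numbered libraries were −0.0835 to 0.258 and 0.069 to 0.149. The block changed no call of a member. Depth limits Smoc1 in untreated cells, at 9 to 16 counts, more than the other 6 members.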
